A study of Mus musculus with 8 samples.

Results

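The genes described here are interferon gamma (Ifng) and 9 genes for its main regulators in Th1 cells, chosen by name: the transcription factors Tbx21, Eomes, Runx3, Hlx and Stat4, both chains of the IL-12 receptor (Il12rb1, Il12rb2) and both chains of the IL-18 receptor (Il18r1, Il18rap). They are 10 of the 33899 genes listed in the deposited table, and all 10 were among the 14455 genes that could be set to their own values. RNA was sequenced from Th1 cells, which in every group were grown from C57BL/6 mouse CD4 T cells by stimulating CD3 and CD28 in medium with 2 ng/ml of IL-12 and 5 µg/ml of an anti-IL-4 antibody. The 8 libraries form 4 groups of 2. In a knockdown experiment, cells were transduced with a short hairpin RNA against Pcbp1, an RNA-binding protein that also carries iron to ferritin, or with a scrambled hairpin, and total RNA depleted of ribosomal RNA was sequenced. In a second experiment, cells were treated with CPX, the iron chelator ciclopirox, or with its solvent DMSO, and polyA RNA was sequenced. The CPX dose and the hours of treatment are not known from the labels. These number the replicates without saying whether they were separate cultures or animals, so that p-values measure only the spread between these libraries, which may be technical.

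Interferon gamma is the defining cytokine of Th1 cells and activates macrophages. In differentiating Th1 cells, IL-12 binds a receptor of the Il12rb1 and Il12rb2 chains and activates STAT4, while the T-box factor T-bet, the product of Tbx21, opens the Ifng gene and, with Runx3 and Hlx, sustains its expression. IL-18 acts on differentiated cells through Il18r1 and its accessory chain Il18rap and, together with IL-12, drives interferon gamma production without further antigen.

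The promoters of 3 members are shown because the results turn on these genes: Ifng fell in both experiments, Il12rb2 was the 1 of 8 members tested whose response was called different between them, and Il18rap had the largest fold change of the members tested in the knockdown. Each run is the 250 bases before the annotated start, from RefSeq on GRCm38.p6, 5′ to 3′ on the gene's strand, at chr10:118440796-118441045 (plus strand) for Ifng, chr6:67376189-67376438 (minus strand) for Il12rb2 and chr1:40515112-40515361 (plus strand) for Il18rap. Capitals mark matches, on either strand, to a STAT site (GAS, TTCNNNGAA), a RUNX site (TGNGGT) or a TATA box (TATAAA). A T-box site (AGGTGT) and an AP-1 site (TGANTCA) were also searched.
Ifng: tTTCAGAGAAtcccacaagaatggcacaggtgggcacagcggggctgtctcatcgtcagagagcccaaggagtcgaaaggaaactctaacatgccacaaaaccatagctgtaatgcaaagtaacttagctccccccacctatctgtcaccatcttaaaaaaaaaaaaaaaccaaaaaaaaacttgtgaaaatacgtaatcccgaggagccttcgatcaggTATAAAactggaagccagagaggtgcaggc
Il12rb2: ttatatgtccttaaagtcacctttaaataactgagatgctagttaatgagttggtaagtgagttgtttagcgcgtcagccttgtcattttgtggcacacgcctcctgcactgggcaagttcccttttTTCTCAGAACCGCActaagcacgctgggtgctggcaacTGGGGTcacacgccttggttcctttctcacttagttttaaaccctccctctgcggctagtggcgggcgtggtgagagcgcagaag
Il18rap: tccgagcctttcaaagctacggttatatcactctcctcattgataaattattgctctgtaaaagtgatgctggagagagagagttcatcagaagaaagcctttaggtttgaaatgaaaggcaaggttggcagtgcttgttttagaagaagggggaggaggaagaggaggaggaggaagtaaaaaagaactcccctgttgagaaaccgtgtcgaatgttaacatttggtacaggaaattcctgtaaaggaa
In the Ifng promoter the GAS match lay 249 to 241 bases before the start and the TATA box 30 to 25 bases before it. In the Il12rb2 promoter the GAS match, at 123 to 115 bases before the start, shared its last base with a RUNX match at 115 to 110, and another RUNX match lay at 85 to 80. The Il18rap window held none of the 5 motifs, which says only that these letters are not in it. The promoter table holds 13 promoters of 9 members (Il12rb1 is named only). Of these 13 promoters, 3 held a GAS match, 3 a RUNX match, 1 a TATA box, and 0 a T-box or an AP-1 match. Over 32851 promoters of that length, 7.02% held a GAS match, 40.1% a RUNX match, 12.4% a TATA box, 11.8% a T-box match and 6.75% an AP-1 match. These matches are descriptions of the sequence and not binding sites.

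Levels are given as RPM, each gene's share of its library's total times 1e+06. The knockdown libraries held 14174293 to 15518303 counts, and the CPX experiment's libraries 19193784 to 19662145 units of a table that the authors rescaled and rounded, for which the number of reads is unknown. A change was called where the adjusted p (Benjamini-Hochberg, over all genes tested) was under 0.05, with edgeR's quasi-likelihood test for the knockdown and limma for CPX. By these tests 56.0% of 11575 genes changed in the knockdown (29.3% higher, 26.7% lower) and 44.7% of 11466 genes changed with CPX (19.9% higher, 24.8% lower), which is the background for every count below. The targeted gene Pcbp1 was at 15.1 and 16.1 RPM with the Pcbp1 hairpin, against 44.0 and 51.7 RPM with the scrambled hairpin. It was also lower with CPX, at 238 and 199 RPM, against 506 and 538 RPM with DMSO.

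Several libraries stood apart from their partners. T helper markers were present in all 8 libraries (8 of 8 listed genes, summed 1186 to 2305 RPM). Markers of CD8 T cells were high in replicate 1 of both knockdown groups: Cd8a was at 67.1 and 6.92 RPM in the Pcbp1 hairpin replicates 1 and 2, and at 63.8 and 6.49 RPM in the scrambled hairpin replicates 1 and 2. The 4 listed CD8 genes summed to 346 and 197 RPM with the Pcbp1 hairpin, 366 and 177 RPM with the scrambled hairpin, 13.7 and 15.7 RPM with CPX, and 193 and 86.6 RPM with DMSO. In all 8 libraries Crtam made up most of this sum. In the knockdown 0 of the 4 were called by edgeR or DESeq2 (0 at an unadjusted p under 0.05), and 2 of 4 fell with CPX (Crtam and Cd8b1). Of 8 NK cell markers, Klrb1c, Ncr1, Klra8 and Klrb1b were below 10 in every column of the deposited table. The other 4 summed to 167 and 63.5 RPM with the Pcbp1 hairpin, against 185 and 77.2 RPM with the scrambled hairpin. With CPX they summed to 23.3 and 20.2 RPM, against 7.68 and 19.5 RPM with DMSO. Macrophage and dendritic cell markers were higher with CPX, at 81.2 and 67.9 RPM summed over 5 of 9 listed symbols, against 3.97 and 6.14 RPM with DMSO. The symbols include an older and a current one of the same gene (Emr1 and Adgre1). All 4 of those tested rose (Itgam, Emr1, Cd68, Itgax), while the listed macrophage markers Lyz2 and Csf1r were below 10 in every column. These genes summed to 4.45 and 5.03 RPM with the Pcbp1 hairpin, against 2.68 and 2.65 RPM with the scrambled hairpin. B cell markers summed to 2.29 and 2.70 RPM with CPX, against 0.661 and 0.512 RPM with DMSO, with 2 of 2 tested higher (Cd79a, Cd79b), and were at most 0.902 RPM in the knockdown libraries. Whether RNA of other cells has a part in the results on the members was not tested beyond the values from 1 replicate number alone given with them. In bulk RNA, fewer cells of a type and less RNA per cell cannot be told apart.

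**Figure D1:**
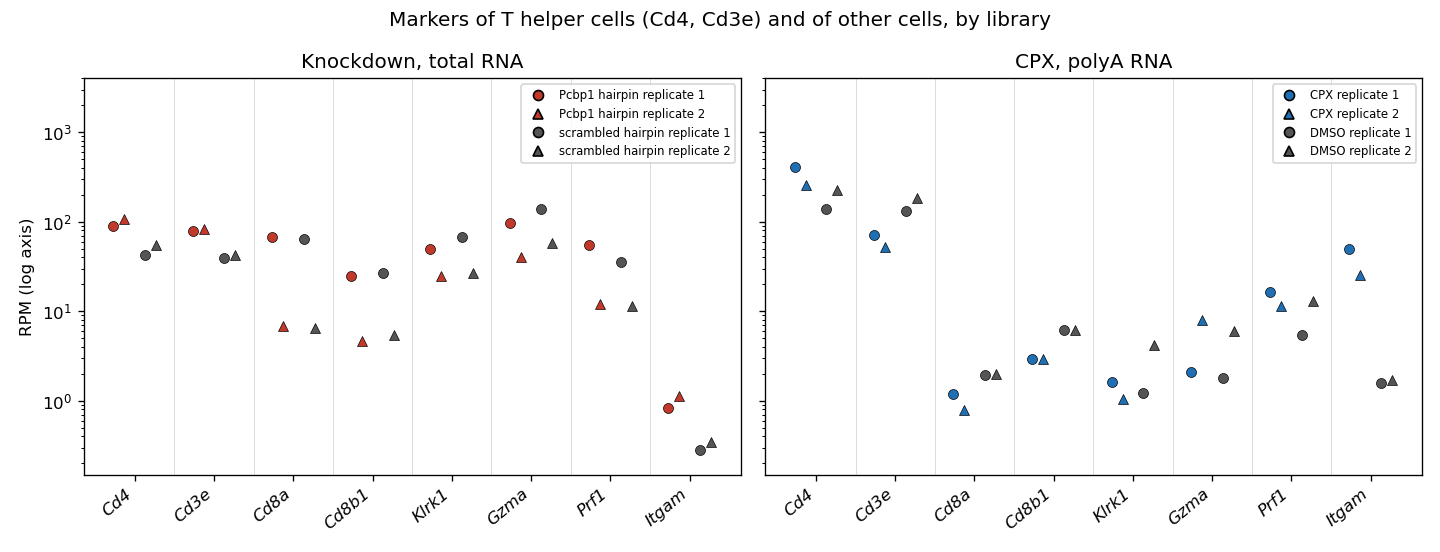
Level of 2 T helper markers (Cd4, Cd3e) and 6 markers of other cells in each library, in RPM on a log axis, with the knockdown on the left and CPX on the right. In the knockdown Cd8a was at 67.1 and 63.8 RPM in the replicate 1 libraries and at 6.92 and 6.49 RPM in the replicate 2 libraries, and Itgam was at 49.5 and 25.5 RPM with CPX, against 1.58 and 1.69 RPM with DMSO.

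The members also followed the replicate numbers. In the knockdown, 9 of 10 members were higher in replicate 1 than in replicate 2 with the Pcbp1 hairpin. With the scrambled hairpin 8 of 10 were. Among all genes with a group mean of at least 1 RPM, which leaves out Eomes and Hlx, the shares were 54.5% and 51.3%. In the CPX experiment, 3 of 10 members were higher in replicate 1 with CPX and 0 of 10 with DMSO. The shares among all genes with a group mean of at least 1 RPM were 44.4% and 41.1%. All 10 members were thus higher in DMSO replicate 2, by 1.41-fold (Eomes) to 7.62-fold (Hlx).

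Per kilobase of exon, the scale on which genes can be compared, Ifng stood far above its regulators in all 4 groups, at 16914 ± 3182 RPM per kb with the Pcbp1 hairpin, 35265 ± 5149 with the scrambled hairpin, 2351 ± 2117 with CPX and 14606 ± 5339 with DMSO (SD, n = 2). With the Pcbp1 hairpin, Stat4 followed at 43.0 RPM per kb, then Tbx21 at 21.1, Il18r1 at 16.7, Il12rb2 at 16.7, Il12rb1 at 10.4, Il18rap at 9.65, Runx3 at 1.62, Hlx at 0.409 and Eomes at 0.129. With the scrambled hairpin the order of group means below Ifng was Stat4 at 56.0 RPM per kb, Il18rap at 27.6, Il18r1 at 21.1, Tbx21 at 15.6, Il12rb2 at 14.2, Il12rb1 at 7.73, Runx3 at 1.32, Hlx at 0.139 and Eomes at 0.0592. Il18rap thus stood below Il12rb1 with the Pcbp1 hairpin, and next to Stat4 with the scrambled hairpin. Neighbours whose libraries overlapped were Il18r1 and Il12rb2, and Il12rb1 and Il18rap, with the Pcbp1 hairpin, and Tbx21 and Il12rb2 with the scrambled hairpin.

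With CPX, Tbx21 led the regulators at 36.1 RPM per kb, then Il18r1 at 21.9, Il12rb1 at 15.4, Il18rap at 9.58, Il12rb2 at 7.28, Runx3 at 7.15, Stat4 at 6.84, Eomes at 2.47 and Hlx at 1.11. With DMSO, Tbx21 also led at 38.9 RPM per kb, followed by Il12rb2 at 31.8, Il18r1 at 23.7, Stat4 at 23.3, Il12rb1 at 22.5, Il18rap at 14.5, Runx3 at 6.23, Hlx at 0.673 and Eomes at 0.516. The replicates of neighbours overlapped for most of this order. With CPX, Il18r1 overlapped Il12rb1, the 4 genes from Il18rap to Stat4 overlapped each other, and so did Eomes and Hlx. With DMSO, the 6 genes from Tbx21 to Il18rap overlapped their neighbours, and so did Hlx and Eomes. The RNA selection differed between the experiments, so that levels were not compared across them.

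**Figure D2:**
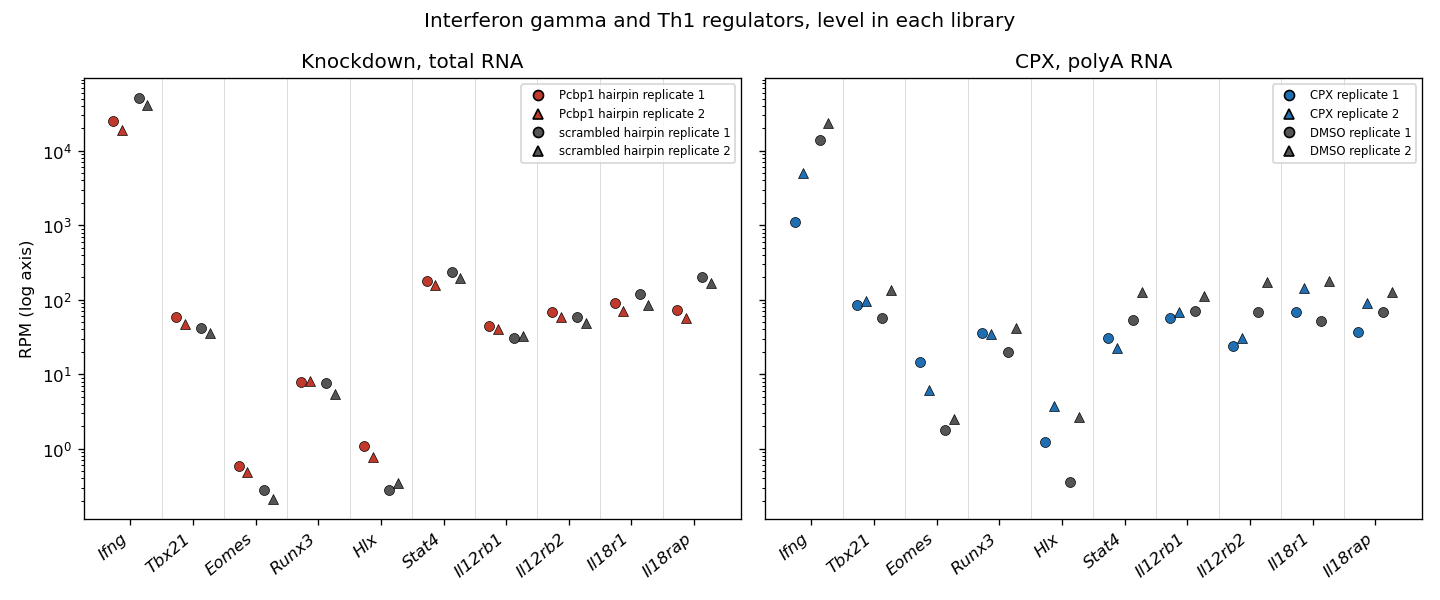
Level of the 10 members in each library, in RPM on a log axis, with the knockdown on the left and CPX on the right; circles are replicate 1 and triangles replicate 2. Ifng stands at 1106 RPM or more in all 8 libraries, Eomes and Hlx are near or below 1 RPM in the knockdown, and the replicates lie farther apart in the CPX experiment.

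Ifng, the effector cytokine, was lower with the Pcbp1 hairpin. It had 24818 and 18990 RPM with the Pcbp1 hairpin, against 50383 and 40954 RPM with the scrambled hairpin. The groups did not overlap: the lower scrambled library was above the higher Pcbp1 hairpin library. The fall was 2.25-fold, a log2 fold change of -1.17 (SE 0.17) with an adjusted p of 8.25e-04 by edgeR. The gene took 2.48% and 1.90% of the Pcbp1 hairpin libraries, against 5.04% and 4.10% of the scrambled libraries, and ranked between 2 and 3 of the genes set to a row in all 4. The call was kept in 9 of 11 alternatives (adjusted p 1.16e-08 to 0.271). It was lost under quantile normalization, which gives genes of like rank a like value (log2 fold change -0.23), and when the spread was shared with the CPX experiment (-1.07, adjusted p = 0.263 by limma). On log2(RPM + 0.5), the replicate 1 libraries alone gave -1.02 and the replicate 2 libraries alone gave -1.11. In the replicate 2 libraries Cd8a was low, while the sum over the 4 CD8 genes was 197 RPM with the Pcbp1 hairpin and 177 RPM with the scrambled hairpin. Most of that was Crtam, at 161 and 139 RPM.

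With CPX, Ifng also fell, and its replicates were farther apart. It had 1106 and 4983 RPM with CPX, against 14026 and 23804 RPM with DMSO. Both CPX libraries were below both DMSO libraries, although the CPX replicates differed 4.51-fold from each other. The fall was 7.78-fold, a log2 fold change of -2.96 (SE 0.71) with an adjusted p of 0.0213 by limma. The rank of Ifng was 119 and 8 in the CPX libraries, against 2 and 1 in the DMSO libraries. Without CPX replicate 1 the change was -1.87 and the call was lost (adjusted p = 0.146 by limma), and without DMSO replicate 2 it was -2.58 (adjusted p = 0.0528). Over its 12 alternatives the adjusted p ran from 3.36e-05 to 0.146, with 10 below the threshold.

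On this scale the median log2 fold change of all genes tested with CPX was -0.12 (0.00 with TMM scaling), against 0.00 in the knockdown. Relative to that median the Ifng change with CPX was -2.84.

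Neighbouring genes of Ifng gave few further values. Of 5 listed neighbours, Il22 and Mdm1 were set to a row. Il22, an interleukin that acts on epithelia, was at 5.61 and 4.13 RPM with the Pcbp1 hairpin, against 9.03 and 6.70 RPM with the scrambled hairpin, and fell (log2 fold change -0.79, SE 0.23, adjusted p = 0.0192 by edgeR). That call was lost without Pcbp1 hairpin replicate 2 and without scrambled hairpin replicate 1. With CPX, Il22 was at 0.156 and 0.208 RPM, against 2.64 and 5.78 RPM with DMSO, and fell (-2.70, SE 0.40, adjusted p = 0.00523 by limma). Mdm1, a microtubule-binding protein of centrioles, was not called in either, at -0.52 in the knockdown (adjusted p = 0.0797 by edgeR) and 0.18 with CPX (adjusted p = 0.756 by limma). Without Pcbp1 hairpin replicate 1, or without scrambled hairpin replicate 2, 2 of the 2 were called.

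**Figure D3:**
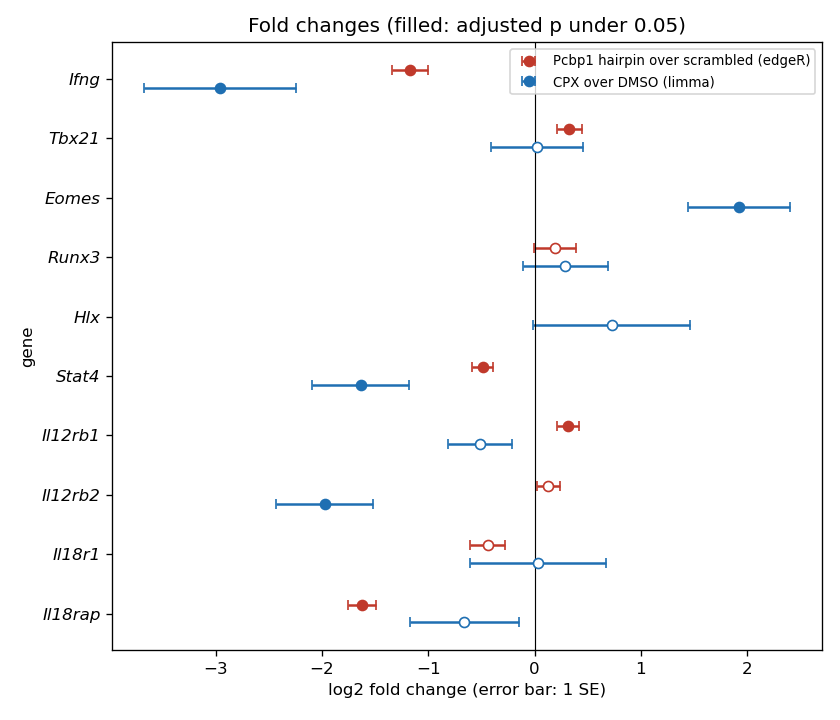
Log2 fold change of each member with 1 SE, with the Pcbp1 hairpin over scrambled hairpin (upper point of each gene) and CPX over DMSO (lower point); filled points had an adjusted p under 0.05. Ifng and Stat4 are filled and left of 0 in both, Il18rap is filled in the knockdown and open with CPX, Il12rb2 is open in the knockdown and filled with CPX, and Eomes and Hlx have no knockdown point.

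Over all members, 5 of the 8 tested in the knockdown were called (3 lower: Ifng, Stat4, Il18rap; 2 higher: Tbx21, Il12rb1), near the 56.0% of all genes. In 7 of these 8 the groups did not overlap, as in 78.5% of all genes. With CPX, 4 of 10 were called (3 lower: Ifng, Stat4, Il12rb2; 1 higher: Eomes), near the 44.7% of all genes, and in 5 of 10 the groups did not overlap, against 76.3% of all genes. In the authors' deposited DESeq2 results for the knockdown, the adjusted p was under 0.05 for Ifng, Stat4, Il18r1 and Il18rap. It was 0.0826 for Tbx21 and 0.0908 for Il12rb1. The authors' adjusted p with CPX was 4.29e-05 for Ifng, 8.37e-04 for Stat4, 2.90e-05 for Il12rb2 and 1.04e-04 for Eomes. It was above 0.05 for the other members. The median log2 fold change of the members was -0.15 in the knockdown, against 0.00 over all genes, and -0.24 with CPX, against -0.12. Without CPX replicate 1, or without DMSO replicate 2, 0 of the 10 members were called with CPX by limma, with 1 and 4 at an unadjusted p under 0.05. Without CPX replicate 2 the count was 2.

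Of the IL-12 receptor chains, Il12rb1 rose in the knockdown and Il12rb2 fell with CPX. Il12rb2, the chain that carries the STAT4 docking site and that Th1 cells keep, was at 67.8 and 59.0 RPM with the Pcbp1 hairpin, against 58.8 and 48.7 RPM with the scrambled hairpin. The groups were adjacent and did not overlap. The log2 fold change of 0.13 (SE 0.11) was not called (adjusted p = 0.336 by edgeR). With CPX it was at 24.1 and 31.1 RPM, against 69.4 and 172 RPM with DMSO. Both CPX libraries lay below both DMSO libraries, which themselves differed 2.47-fold. Il12rb2 fell 3.94-fold with CPX (log2 fold change -1.98, SE 0.46, adjusted p = 0.0192 by limma, 9 of 12 alternatives kept the call with a range of 9.48e-04 to 0.125). It was not called without CPX replicate 1 (-1.79), without CPX replicate 2 (-2.16) or without DMSO replicate 2 (-1.33).

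Il12rb1, the chain shared with the IL-23 receptor, was at 45.0 and 40.1 RPM with the Pcbp1 hairpin, against 30.5 and 32.9 RPM with the scrambled hairpin. Both Pcbp1 hairpin libraries were above both scrambled libraries. The rise was 1.25-fold (log2 fold change 0.32, SE 0.10, adjusted p = 0.0304 by edgeR), and 6 of 11 alternatives kept the call (adjusted p 0.0139 to 0.238). The gene missed the threshold at 0.24 without Pcbp1 hairpin replicate 1 (adjusted p = 0.134 by edgeR) and at 0.26 without scrambled hairpin replicate 1 (0.127). With all libraries the call was lost with DESeq2 (0.30, adjusted p = 0.0950), under quantile normalization (0.19, 0.116) and when the spread was shared with the CPX experiment (0.42, 0.238). With CPX, Il12rb1 was at 56.7 and 69.4 RPM, against 70.7 and 114 RPM with DMSO. The groups did not overlap, but the highest CPX and lowest DMSO library nearly met. The log2 fold change was -0.51 (SE 0.30) and was not called (adjusted p = 0.216 by limma).

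Among the IL-18 receptor chains, Il18rap had the largest knockdown change of the members tested. It was at 74.0 and 56.2 RPM with the Pcbp1 hairpin, against 202 and 170 RPM with the scrambled hairpin. The groups were far apart, with no Pcbp1 hairpin library within 2-fold of a scrambled one. The fall was 3.08-fold (log2 fold change -1.62, SE 0.13, adjusted p = 5.31e-05 by edgeR) and was called in 11 of 11 alternatives (adjusted p 1.10e-31 to 0.0469). On log2(RPM + 0.5) the replicate 1 libraries alone gave -1.45 and the replicate 2 libraries alone -1.59. With CPX, Il18rap was at 37.5 and 91.8 RPM, against 67.9 and 128 RPM with DMSO. These groups overlapped, and the log2 fold change of -0.66 (SE 0.51) was not called (adjusted p = 0.333 by limma). It was -0.020 without CPX replicate 1 and -1.30 without CPX replicate 2, neither called (0.976 and 0.117).

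Il18r1, the chain that binds IL-18, was at 90.1 and 71.1 RPM with the Pcbp1 hairpin, against 119 and 84.0 RPM with the scrambled hairpin. The groups overlapped, since the higher Pcbp1 hairpin library exceeded the lower scrambled one. Its log2 fold change was -0.44 (SE 0.17), just outside the threshold (adjusted p = 0.0535 by edgeR), and it was called in 7 of 11 alternatives (adjusted p 9.29e-05 to 0.719). In the authors' deposited table its adjusted p was 0.0173, at a log2 fold change of -0.43. Without Pcbp1 hairpin replicate 1 the change was -0.61, and without scrambled hairpin replicate 2 it was -0.67, both called. With CPX, Il18r1 was at 68.1 and 143 RPM, against 52.5 and 176 RPM with DMSO. The CPX libraries lay between the DMSO libraries, and the log2 fold change was 0.04 (SE 0.64, adjusted p = 0.969 by limma).

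Il18r1 and Il18rap lie in a chromosomal cluster of 6 genes of the IL-1 receptor family, in which the knockdown changes pointed both ways. Il1r2, the decoy receptor for IL-1, rose (404 and 411 RPM with the Pcbp1 hairpin, against 119 and 125 RPM with the scrambled hairpin, log2 fold change 1.63, adjusted p = 8.04e-06 by edgeR). Il1r1, the signalling IL-1 receptor, also rose (21.9 and 31.5 RPM with the Pcbp1 hairpin, against 10.9 and 12.4 RPM with the scrambled hairpin, log2 fold change 1.08, adjusted p = 0.00210 by edgeR). The count was 2 higher and 1 lower (Il18rap) of 6, and 2 lower without Pcbp1 hairpin replicate 1 or scrambled hairpin replicate 2. Il1rl2, a receptor for IL-36, was at -0.18 and Il1rl1, the receptor for IL-33, at 0.01 on the log2 scale, neither called (adjusted p = 0.512 and 0.978 by edgeR).

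With CPX, Il1r2 and Il1r1 fell (log2 fold changes -1.70 and -2.72, adjusted p = 0.00530 and 0.0258 by limma), and 4 of the 6 cluster genes were not called. Il1r1 was at 0.573 and 3.79 RPM with CPX, against 10.9 and 17.1 RPM with DMSO. Il1rl1 was at -1.32 and Il1rl2 at -0.56 (adjusted p = 0.179 and 0.371 by limma). The cluster's count fell to 1 without CPX replicate 1, without DMSO replicate 1 or without DMSO replicate 2.

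Stat4, which carries the IL-12 signal to the nucleus, was lower in both experiments. It was at 177 and 156 RPM with the Pcbp1 hairpin, against 236 and 198 RPM with the scrambled hairpin. No library overlapped, and the fall was 1.40-fold (log2 fold change -0.49, SE 0.09, adjusted p = 0.00340 by edgeR, kept in 10 of 11 alternatives with a range of 8.95e-06 to 0.501). With CPX it was at 30.4 and 22.5 RPM, against 53.1 and 128 RPM with DMSO. The groups did not overlap, and the fall was 3.11-fold (log2 fold change -1.64, SE 0.46, adjusted p = 0.0336 by limma). The CPX call was kept in 7 of 12 alternatives (adjusted p 0.00687 to 0.205). It was lost without CPX replicate 1 (-1.85), without CPX replicate 2 (-1.42) and without DMSO replicate 2 (-1.01). The replicate 1 libraries alone gave -0.79 and the replicate 2 libraries alone -2.48.

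Tbx21, which encodes T-bet, did not fall with Ifng. It was at 58.1 and 46.9 RPM with the Pcbp1 hairpin, against 41.3 and 36.4 RPM with the scrambled hairpin. Each Pcbp1 hairpin library was above each scrambled library, and the rise of 1.25-fold was close to the threshold (log2 fold change 0.33, SE 0.12, adjusted p = 0.0485 by edgeR). That call was kept in 4 of 11 alternatives (adjusted p 0.00530 to 0.437), and was lost without Pcbp1 hairpin replicate 1 (0.18), without scrambled hairpin replicate 2 (0.24) and with DESeq2 (adjusted p = 0.0824). With CPX, Tbx21 was at 84.4 and 95.2 RPM, against 56.8 and 137 RPM with DMSO. The CPX libraries lay between the DMSO libraries, and the log2 fold change was 0.02 (SE 0.43, adjusted p = 0.968 by limma). That value was -0.06 without CPX replicate 2, -0.60 without DMSO replicate 1 and 0.65 without DMSO replicate 2.

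Eomes, a T-box factor related to T-bet that is characteristic of CD8 T and NK cells, was at the limit of detection in the knockdown. It had 9 and 7 counts with the Pcbp1 hairpin, 0.580 and 0.490 RPM, against 4 and 3 counts with the scrambled hairpin, 0.282 and 0.209 RPM. The exact Poisson 95% intervals, which cover counting error only, were 0.265 to 1.10 and 0.197 to 1.01 RPM with the Pcbp1 hairpin, against 0.0769 to 0.723 and 0.0432 to 0.612 RPM with the scrambled hairpin. They overlapped, but each covers 1 library, so the overlap is not a test of the groups. With no filter the log2 fold change was 0.98 and was not called (adjusted p = 0.229 by edgeR). With CPX, Eomes was at 14.5 and 6.08 RPM, against 1.78 and 2.51 RPM with DMSO. Both CPX libraries were above both DMSO libraries. The rise was 3.79-fold on log2(RPM + 0.5) (log2 fold change 1.92, SE 0.48, adjusted p = 0.0239 by limma), kept in 9 of 12 alternatives with a range of 0.00382 to 0.122. It was lost without CPX replicate 1 (1.33, adjusted p = 0.0503 by limma), without DMSO replicate 1 (1.72, 0.122) and without DMSO replicate 2 (2.12, 0.0673). In the same libraries Cd8b1, which marks CD8 T cells, was at 2.92 and 2.96 RPM with CPX, against 6.15 and 6.24 RPM with DMSO. The NK cell marker Klre1 was at 4.12 and 0.572 RPM with CPX, against 0.102 and 0.0512 RPM with DMSO. Prf1 was at 16.5 and 11.5 RPM with CPX, against 5.44 and 13.2 RPM with DMSO. Klri2 was at 0.625 and 0.208 RPM with CPX, against 0.356 and 0.205 RPM with DMSO. Like Eomes, these were higher in CPX replicate 1 than in CPX replicate 2. Gzma was lower there, at 2.08 and 7.90 RPM with CPX, against 1.78 and 6.04 RPM with DMSO. Of these NK cell markers 2 were tested with CPX, Prf1 and Gzma, and 0 were called. The part of such cells in the Eomes result was not tested.

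Runx3, which acts with T-bet at Ifng, was called in neither experiment. It was at 7.99 and 8.25 RPM with the Pcbp1 hairpin, against 7.69 and 5.52 RPM with the scrambled hairpin (log2 fold change 0.19, SE 0.20, adjusted p = 0.435 by edgeR). These groups lay side by side. With CPX it was at 36.2 and 35.3 RPM, against 20.0 and 42.3 RPM with DMSO (log2 fold change 0.29, SE 0.40, adjusted p = 0.578 by limma). The DMSO libraries bracketed the CPX libraries.

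Hlx, a homeobox factor that acts with T-bet, was the other member with few counts. It had 17 and 11 counts with the Pcbp1 hairpin, 1.10 and 0.769 RPM, against 4 and 5 counts with the scrambled hairpin, 0.282 and 0.349 RPM. The groups did not overlap, but only Pcbp1 hairpin replicate 1 reached 1 RPM. The filter asked for 2 or more libraries, so Hlx was not tested with it. The 95% intervals of the libraries overlapped (0.638 to 1.75 and 0.384 to 1.38 RPM with the Pcbp1 hairpin, 0.0769 to 0.723 and 0.113 to 0.815 RPM with the scrambled hairpin), which is not a test of the groups. With no filter the log2 fold change was 1.43, just outside the threshold (adjusted p = 0.0519 by edgeR). With CPX, Hlx was at 1.25 and 3.79 RPM, against 0.356 and 2.71 RPM with DMSO (log2 fold change 0.73, SE 0.74, adjusted p = 0.455 by limma). The groups overlapped, and the replicates of each differed by more than the groups did.

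The difference between the effects was tested in 1 limma fit of all 8 libraries, as the knockdown effect minus the CPX effect, in which 51.3% of 10430 genes were called (35.2% higher, 16.1% lower). On this scale the median over all genes was 0.40, and it was -0.02 with TMM scaling. With TMM scaling 2696 genes were called higher and 2574 lower. Of the 8 members tested, 1 was called, against 2 without CPX replicate 1, 3 without CPX replicate 2 and 4 without DMSO replicate 1. This was Il12rb2, at 2.22 (SE 0.54, adjusted p = 0.0123 by limma), or 1.81 relative to the median of all genes and 1.77 with TMM scaling (adjusted p = 0.0208). It was called in 15 of 15 alternatives (adjusted p 0.00156 to 0.0495). The difference for Ifng was 1.89 (SE 0.89, adjusted p = 0.115 by limma), or 1.49 relative to the median, and was not called. It was called without CPX replicate 2, at 2.98 (adjusted p = 0.00304 by limma), and under quantile normalization, at 3.75 (0.0318). It was 0.81 without CPX replicate 1 (0.264), within a range over 15 alternatives of 0.00304 to 0.270.

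For the other members the difference was not called with all 8 libraries. Il12rb1 was just outside, at 0.93 (SE 0.33, adjusted p = 0.0510 by limma), but at 0.49 with TMM scaling (0.200), within a range of 0.0113 to 0.243. Stat4 was at 1.26 (adjusted p = 0.0851 by limma), or 1.89 without DMSO replicate 1 (0.00510). Il18rap was at -0.86 (SE 0.63, adjusted p = 0.287 by limma), or -1.26 relative to the median. It was called without CPX replicate 1, at -1.498 (adjusted p = 0.0302 by limma), and was -0.22 without CPX replicate 2 (0.701). Tbx21, Runx3 and Il18r1 were at 0.40, 0.01 and -0.36. With TMM scaling, which also moved the median of all genes as given above, they were at -0.04, -0.42 and -0.80, so that Tbx21 and Runx3 had no direction that held under both scalings. Tbx21 was called without DMSO replicate 1, at 1.03 (adjusted p = 0.0249 by limma).

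The genes around the members were read from lists of names, by counts in each direction. Among 17 tested genes of IL-12, IL-18 and interferon gamma signalling, 7 rose and 5 fell with the Pcbp1 hairpin (median log2 fold change 0.07). Myd88, the adaptor of the IL-18 and IL-1 receptors, rose 4.90-fold (16.9 and 15.7 RPM with the Pcbp1 hairpin, against at most 3.17 RPM with the scrambled hairpin, adjusted p = 3.04e-05 by edgeR). Stat3, which transmits IL-6 signals, rose 2.46-fold (adjusted p = 9.67e-05), and Traf6, which acts below Myd88, rose 1.41-fold (3.27e-04). Ifngr1, the ligand-binding chain of the interferon gamma receptor, rose 1.87-fold (5.88e-04).

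With CPX, 5 of the 17 signalling genes rose and 4 fell (median 0.27). Gadd45b, an activator of the p38 pathway that IL-18 induces, rose 4.03-fold (497 and 372 RPM with CPX, against 108 and 105 RPM with DMSO, adjusted p = 0.00305 by limma), and Socs3, a feedback inhibitor of cytokine receptors, rose 3.29-fold (0.00876). Irak1, a kinase below Myd88, fell 3.95-fold (0.00419), and Jak2, the kinase bound to Il12rb2, fell 2.49-fold (0.00574). These counts were 1 higher and 1 lower without DMSO replicate 1, and 1 higher and 2 lower without DMSO replicate 2.

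Among 14 partners of T-bet and other Th1-promoting factors, 8 rose and 2 fell with the Pcbp1 hairpin (median 0.40). Bhlhe40, a repressor of Il10 that promotes Th1 cytokines, rose 3.92-fold (175 and 166 RPM with the Pcbp1 hairpin, against 43.5 and 37.5 RPM with the scrambled hairpin, adjusted p = 8.70e-06 by edgeR). Ets1, a cofactor of T-bet, rose 2.38-fold (1.30e-04), and Zeb2, which acts with T-bet in effector cells, rose 1.67-fold (5.58e-05). Batf, an AP-1 factor of activated T cells, fell 2.07-fold (7.82e-05). The number that fell was 1 without Pcbp1 hairpin replicate 1 or scrambled hairpin replicate 1.

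With CPX, 4 of the 14 rose and 3 fell (median 0.17). Zeb2 fell 9.90-fold (14.8 and 18.9 RPM with CPX, against 220 and 131 RPM with DMSO, adjusted p = 0.00268 by limma), and Batf fell 8.47-fold (0.00241). Nfil3, a factor that regulates T cell cytokines, rose 6.08-fold (0.00305), and Runx1, a relative of Runx3, rose 3.37-fold (0.00401). The difference was called for both Zeb2 and Batf, at 4.15 and 2.15 (adjusted p = 1.40e-04 and 4.95e-04 by limma).

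Among 20 Th1 effector and surface genes, 4 rose and 8 fell with the Pcbp1 hairpin (median -0.20). Csf2, which encodes GM-CSF, fell 4.55-fold (109 and 127 RPM with the Pcbp1 hairpin, against 459 and 534 RPM with the scrambled hairpin, adjusted p = 1.27e-05 by edgeR). Cxcr6, a homing receptor, fell 2.88-fold (4.24e-05), and Il2, a growth factor of T cells, fell 2.64-fold (3.18e-05). Nkg7, a granule protein of cytotoxic and Th1 cells, rose 4.75-fold (4.43e-05).

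With CPX, 0 of these 20 rose and 13 fell (median -2.23), against the 24.8% of all genes that fell. By limma, 1 rose at an unadjusted p under 0.05, and 1 was called with TMM scaling or without DMSO replicate 2. Il2 fell 31.8-fold (182 and 226 RPM with CPX, against 10023 and 4183 RPM with DMSO, adjusted p = 0.00241 by limma). Serpinb6b, an inhibitor of serine proteases, fell 10.7-fold (0.00311), Ccl3, a chemokine, fell 6.02-fold (0.00296), and Cxcr3, the Th1 homing receptor that T-bet induces, fell 5.55-fold (0.00347). In the difference, the knockdown effect minus the CPX effect, 12 of 20 were called higher and 0 lower (0 at an unadjusted p under 0.05 by limma). Il2, which fell in both experiments, was among the higher ones at 3.70. Of all genes, 35.2% were called higher and 16.1% lower. With TMM scaling 11 of the 20 were higher and 0 lower. Tbx21 itself was at 0.02 with CPX (SE 0.43), and from -0.60 to 0.65 when 1 library was left out. Its part in the fall of Cxcr3 was not tested.

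Among 24 tested genes known to be induced by interferon gamma, 2 rose and 12 fell with the Pcbp1 hairpin (median -0.43), against the 26.7% of all genes that fell. B2m, the light chain of MHC class I, fell 3.10-fold (582 and 674 RPM with the Pcbp1 hairpin, against 1715 and 1902 RPM with the scrambled hairpin, adjusted p = 2.69e-05 by edgeR). Gbp2 and Igtp, interferon-induced GTPases, fell 2.66-fold and 1.92-fold (2.31e-05 and 3.18e-04), whereas Tapbp, the peptide-loading protein tapasin, rose 2.09-fold (1.78e-04). The number that fell was 9 to 12 when 1 library was left out, and 1 when the spread was shared with the CPX experiment.

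With CPX, in which Ifng also fell, 4 of the 24 rose, 1 fell and 19 were not called (median 0.33). Of all genes, 19.9% rose and 24.8% fell with CPX. Irf1, an interferon-induced transcription factor, rose 3.59-fold (54.0 and 46.7 RPM with CPX, against 10.8 and 17.1 RPM with DMSO, adjusted p = 0.00848 by limma). Nlrc5, the transactivator of MHC class I genes, rose 3.15-fold (0.00376), and B2m rose 1.87-fold (0.0121), whereas Gbp5, a GTPase of the inflammasome pathway, fell 7.38-fold (0.00859). The number that rose was 2 without CPX replicate 1 and 1 without DMSO replicate 1, and the number that fell was 0 without CPX replicate 1 or without CPX replicate 2. In the difference, the knockdown effect minus the CPX effect, 2 were called higher and 6 lower, against 35.2% and 16.1% of all genes. With TMM scaling, 1 gene of the list was higher and 8 were lower. When 1 library was left out, 1 to 4 were higher, with 4 without CPX replicate 1 or CPX replicate 2, and 4 to 11 were lower, with 11 without CPX replicate 2. B2m was among the lower ones, at -2.43 (SE 0.19, adjusted p = 1.21e-04 by limma). Irf1 and Socs1 are among the genes that stand in 2 lists each. Markers of macrophages and dendritic cells, which also express these genes, were higher with CPX as given above, and their part in this result was not tested.

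**Figure D4:**
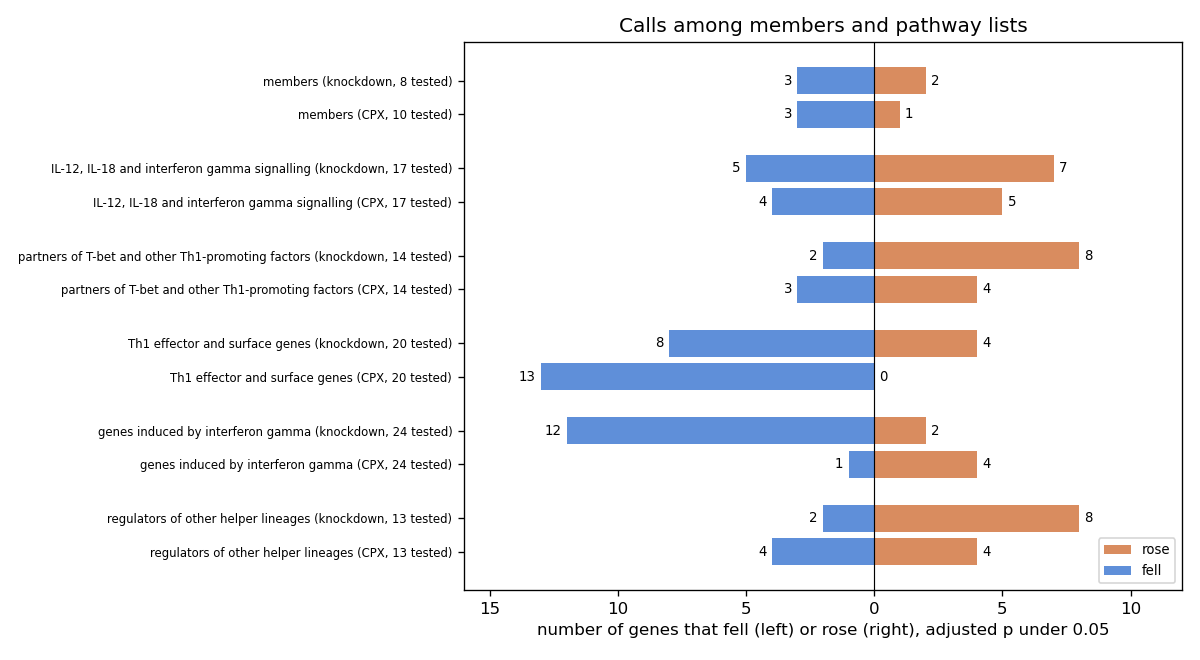
Number of genes that rose (right) or fell (left) at an adjusted p under 0.05 among the members and 5 lists of related genes, with the knockdown above CPX in each pair. The genes induced by interferon gamma have 12 falls in the knockdown and 1 with CPX, and the Th1 effector genes have 8 falls in the knockdown and 13 with CPX.

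Regulators of the other helper lineages were counted to set the Th1 genes beside them. With the Pcbp1 hairpin 8 of 13 tested rose and 2 fell (median 0.46), the falls numbering 1 without Pcbp1 hairpin replicate 2 or scrambled hairpin replicate 1. Il4, the Th2 cytokine, fell 6.61-fold (11.7 and 9.44 RPM with the Pcbp1 hairpin, against 58.4 and 71.4 RPM with the scrambled hairpin, adjusted p = 1.54e-05 by edgeR). Bcl6, the regulator of follicular helper cells and an antagonist of T-bet targets, rose 2.67-fold (2.43e-04), Tcf7, a factor of naive and memory cells, rose 1.98-fold (0.00355), and Stat5b, which transmits IL-2 signals, rose 1.59-fold (3.81e-04). With CPX, 4 of 13 rose and 4 fell (median -0.03), the rises numbering 2 without DMSO replicate 1. Bcl6 rose 6.32-fold (154 and 121 RPM with CPX, against 19.0 and 23.5 RPM with DMSO, adjusted p = 0.00258 by limma). Rora, a factor of Th17 cells, rose 10.7-fold (0.00241) and Tgfbr2, a chain of the TGF-beta receptor, rose 2.58-fold (0.00572), whereas Stat5b fell 10.7-fold (0.00258).

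The genes whose pattern over the 8 libraries was most like that of a member were found by the root mean square difference of log2(RPM + 0.5), centred within each experiment, among 10430 genes. For Ifng these were Gpr65 (0.257), Tnfsf4 (0.314), Tm2d3 (0.335) and Zfp329 (0.357). Gpr65, a proton-sensing receptor, was at 180 and 153 RPM with the Pcbp1 hairpin, against 318 and 292 RPM with the scrambled hairpin, and at 5.31 and 24.4 RPM with CPX, against 124 and 123 RPM with DMSO. Like Ifng, it was lower in CPX replicate 1 than in CPX replicate 2. Tnfsf4, the ligand of the costimulatory receptor OX40, had log2 fold changes of -1.03 in the knockdown and -2.89 with CPX.

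For Tbx21 the nearest were 2810025M15Rik (0.125), Acat2 (0.151), Sytl2 (0.152) and Tuba4a (0.154), and for Il18rap they were Gm12534 (0.204), Casp1 (0.249), Zfp688 (0.285) and AI597468 (0.293). Casp1, the protease that matures IL-18, was at 16.8 and 14.7 RPM with the Pcbp1 hairpin, against 37.5 and 32.3 RPM with the scrambled hairpin. With CPX it was at 2.71 and 4.47 RPM, against 5.49 and 8.24 RPM with DMSO. In both experiments its replicate order was that of Il18rap. These distances share libraries, and a small one says only that the values moved alike.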

How the data were processed

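The members and the gene lists were chosen with earlier results of these data known. Reads were processed with cutadapt, STAR, HTSeq and DESeq on the build mm9, per the submitters' processing notes. The deposited table of libraries bears the name RPM, the unit the design assumed, but its knockdown columns are raw counts per gene. Its CPX and DMSO columns behave as a score, counts multiplied by a factor common to the 4 libraries and rounded, so no count model was used for them. The authors' 2 comparison tables hold DESeq2 output, per the file headers: a mean signal (normalized counts), log2 fold changes with SEs, p-values and a Wald score.

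The table's gene labels are displaced from the line labelled Ins1 on, which holds the constant 23487630. Of 14805 lines with a value of at least 10, 14455 were set to the 1 gene with the same mean signal in each comparison table (relative tolerance 2e-09 in the knockdown, absolute tolerance 1.2 for CPX), and 350 that match several were left out. Before the constant, 7208 of 7208 lines carried their own label, and after it 7246 of 7247 carried another.

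RPM was computed on totals without the constant line. A gene was tested where 2 or more libraries of an experiment reached 1 RPM, with edgeR 4.0.16 (quasi-likelihood, TMM) on the knockdown counts and limma 3.58.1 (trended variance) on log2(RPM + 0.5) for CPX and for the difference of the effects, in R 4.3.3, with Benjamini-Hochberg adjustment. Fold changes of low genes are understated on the log2(RPM + 0.5) scale. The knockdown SE is the absolute log2 fold change divided by the root of edgeR's F. DESeq2 1.42.0, other scalings, filters and pseudocounts, and leaving out each library were the alternatives. Values from libraries of 1 replicate number alone, with no test, were added after seeing the data. The scripts were tested on simulated data.

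All 10 members, at most 4 genes of each list with the smallest p, all IL-1 receptor cluster genes and Ifng neighbours with a row, and the 4 genes nearest to Ifng, Tbx21 and Il18rap are named. Exon lengths are of GRCm38 and promoter sequences are RefSeq's.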

Additional observations from a re-analysis of the deposited data

Results flagged for a closer look

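The change of Il12rb2 was called different between the 2 experiments, as were those of 51.3% of 10430 genes. The experiments also differed in RNA selection and in their control, so that the perturbation and the experiment cannot be told apart. The knockdown effect minus the CPX effect was 2.22 on the log2 scale (SE 0.54, adjusted p = 0.0123 by limma), or 1.81 relative to the median of all genes. Both Pcbp1 hairpin libraries were above both scrambled libraries, but the nearest of them were almost equal, at 59.0 and 58.8 RPM. The knockdown change itself was not called (0.13, adjusted p = 0.336 by edgeR). Both CPX libraries were below both DMSO libraries. The groups did not overlap in 78.5% of all genes in the knockdown and in 76.3% with CPX. For the difference, the replicate 1 libraries alone gave 1.71 and the replicate 2 libraries alone 2.72, values with no test.

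Il12rb1 also had groups apart in opposite directions, higher with the Pcbp1 hairpin and lower with CPX in every library. Its change with CPX was not called (-0.51, adjusted p = 0.216 by limma). Its difference of 0.93 missed the threshold (adjusted p = 0.0510 by limma), and it was 0.49 with TMM scaling (adjusted p = 0.200), within a range over 15 alternatives of 0.0113 to 0.243.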

How the results depend on the processing

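Il18rap in the knockdown and Il12rb2 in the difference kept their calls in 11 of 11 and 15 of 15 alternatives. Of the knockdown results, quantile normalization left 3 members called and Ifng at -0.23. The fit sharing its spread with the CPX experiment called 2759 genes (1971 higher, 788 lower) and 1 member, with Ifng at -1.07, and lowered list counts, to 1 fall of the genes induced by interferon gamma, 1 of the effector genes and 1 of the signalling genes, and 4 rises of T-bet partners. The cause of that loss was not tested. When 1 library was left out, Ifng ran from -1.36 to -1.02 and Runx3 from -0.024 to 0.45.

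With CPX, leaving out 1 library gave 2108 to 5809 genes called, 0 to 3 members called and Ifng at -4.05 to -1.87. Members with no call changed sign: Tbx21 ran from -0.60 to 0.65, Runx3 from -0.24 to 0.82, Hlx from -0.23 to 1.68 and Il18r1 from -0.83 to 0.90. Genes called numbered 2108 without DMSO replicate 1 and 2354 without DMSO replicate 2.

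In the difference, quantile normalization called 2 members with Ifng at 3.75. Leaving out 1 library gave 1 to 4 members, with Ifng at 0.81 to 2.98, Tbx21 at -0.23 to 1.03, Runx3 at -0.52 to 0.53 and Il18r1 at -1.22 to 0.51. Runx3 was at -0.028 with a pseudocount of 2, -0.42 with TMM and -0.48 with quantile normalization, and Tbx21 at -0.042 and -0.026 with TMM and quantile normalization.

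The labels do not say that a replicate number marks a shared culture or batch, so the numbers were not taken as pairs, although deviations of same-numbered libraries correlated at 0.289 over 11575 genes in the knockdown and 0.101 over 11466 genes with CPX. With the replicate number as a block, 7348 genes were called in the knockdown, 5651 with CPX and 5362 in the difference. The block added Il18r1 in the knockdown (-0.43, adjusted p = 9.29e-05 by edgeR). In the difference it gave 4 members, adding Ifng at 1.89 (adjusted p = 0.0198 by limma), Il12rb1 (0.0271) and Il18rap (0.0237). With CPX it changed no member's call, while 8 genes induced by interferon gamma rose and 5 T-bet partners fell.

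Eomes and Hlx, at 3 to 17 counts a knockdown library, are limited by depth. With no filter their knockdown log2 fold changes were 0.98 and 1.43 (adjusted p = 0.229 and 0.0519 by edgeR). The read depth of the CPX experiment is not stated. Fitted to the authors' mean normalized counts, 1 unit of its values stood for about 1.97 normalized counts.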
